A study of Mus musculus with 13 samples.

Results

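Adventitial and airway-cuff fibroblasts of the mouse lung are described here from 155 cells of a single-cell RNA dataset. The cells were chosen by their own UMI counts. They came from libraries 1, 2, 3 and 7 with at most 10% mitochondrial UMIs, where a UMI is a molecular tag that marks 1 captured RNA molecule. Each had at least 5 UMIs of the collagen genes Col1a1, Col1a2 and Col3a1 together, and at least 1 UMI of Pi16, Col14a1 and Lum together. None had a UMI of Npnt or Col13a1 (alveolar fibroblasts), Cdh5 (endothelium), Ptprc (leukocytes) or Myh11 (smooth muscle). The 155 cells made up 0.743% of the 20856 cells within the mitochondrial limit (exact 95% binomial interval 0.631 to 0.869), and 7.58% of the 2044 cells with 5 collagen UMIs. The deposited matrix held 37344 barcodes in all.

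The study compared lungs of C57BL/6 mice, and 4 of its 13 labelled samples belong to the single-cell experiment by their titles. These were a control, an Asthma sample (mice sensitized and challenged with ovalbumin), a PPE-emphysema sample (repeated airway instillation of porcine pancreatic elastase, PPE) and a PPE-recovery sample (a single instillation of PPE followed by a longer wait). The other 9 samples carry the groups Acute injury, Con and emphysema with 3 samples each, and were not analysed here. Barcodes name libraries by number only, and 7 libraries stand against 4 samples, so no library was given a condition and no condition was compared. With no replicate to compare, no p-value was computed, every interval covers counting error only, and a difference between libraries is a difference between those libraries.

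Adventitial fibroblasts lie in the sleeve of connective tissue around bronchi and larger vessels, while alveolar fibroblasts lie in the walls of the airspaces. In many mouse tissues, fibroblasts with Pi16 and Dpp4 are found around vessels, and cells of this kind are known for dense collagen, for small proteoglycans such as decorin, and for signals to lymphocytes and eosinophils, among them Il33. Hhip and Aspn mark a fibroblast close to the airway wall. Position in the tissue was not measured in these data, so the place of the cells can be read only from their genes.

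Libraries 2 and 3 held 76 and 67 of the adventitial fibroblasts, and libraries 1 and 7 held 8 and 4. Their share of cells was 0.997% in library 2 (0.786 to 1.25), 1.31% in library 3 (1.01 to 1.66), 0.167% in library 1 (0.0720 to 0.328) and 0.121% in library 7 (0.0330 to 0.310). The intervals of libraries 2 and 3 lay above those of libraries 1 and 7. As a share of the collagen-positive cells, however, the cells made up 6.96%, 5.75%, 12.6% and 5.41% in libraries 1, 2, 3 and 7, and libraries 1, 2 and 7 lay close together on this scale. Libraries 4, 5 and 6 held 0, 4 and 2 UMIs of the collagen genes, and no cell that met the rule. Over the 155 cells, 1554025 UMIs were counted (93179, 766538, 631087 and 63221 in libraries 1, 2, 3 and 7). A cell had a median of 9616 UMIs and 3171 genes, from 558 to 31125 UMIs. The counts of genes past 2-fold are also given for libraries 2 and 3 alone. Of the barcode sequences, 153 occurred in more than 1 library. A single adventitial fibroblast was among them, and no sequence occurred in 2 of the adventitial fibroblasts.

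The rule chose cells by values of the same genes that describe them, so the following values of rule genes are a description. Values are UMIs per 1000000 UMIs of the class (CPM). Reads came from the 3′ end of each RNA, so a level does not scale with gene length. Pi16, a secreted peptidase inhibitor (ENSMUSG00000024011, chromosome 17, 29317680 to 29330593, plus strand, GRCm38), had 665, 2106, 2773 and 94.9 CPM in libraries 1, 2, 3 and 7. Col14a1, a collagen that sits on the surface of collagen fibrils (chromosome 15, 55307750 to 55520803, plus strand), had 773, 964, 1163 and 127 CPM. Lum, the keratan sulfate proteoglycan lumican (chromosome 10, 97565128 to 97572703, plus strand), had 440.0, 855, 1060 and 94.9 CPM. Each of the 3 genes was lowest in library 7 and highest in library 3. Of the 155 cells, 85 had UMIs of all 3, 27 of Col14a1 alone, 22 of Pi16 and Col14a1, 15 of Col14a1 and Lum, 3 of Pi16 alone and 3 of Lum alone.

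The cells just inside and just outside the thresholds were few, apart from those with an alveolar marker. Decorin (Dcn), which the rule did not use, had 4196 CPM in the 8 cells with exactly 1 marker UMI and 11037 CPM in the other 147. In 24 collagen-positive cells without a marker UMI, which were left out, it had 6795 CPM at a median of 1364 UMIs per cell. A further 492 cells met the rule but for a UMI of Npnt or Col13a1, and so outnumbered the cells kept. Their Dcn level was 1555 CPM, between that of adventitial and of alveolar fibroblasts. In the 32 of them with exactly 1 such UMI it was 9491 CPM. The boundary to alveolar fibroblasts was therefore not sharp.

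Markers that the rule did not use were those of adventitial fibroblasts. For comparison, alveolar fibroblasts were taken as 654 cells of the same libraries with 5 collagen UMIs, a UMI of Npnt or Col13a1, and none of Pi16, Col14a1 or Lum. Dcn (chromosome 10, 97479609 to 97518143, plus strand), which binds collagen fibrils, had 6654, 9999.5, 13361 and 2436 CPM in libraries 1, 2, 3 and 7 of adventitial fibroblasts. In alveolar fibroblasts it had 226, 132, 272 and 409 CPM, and the ranges did not overlap. The ratio was 60.5 (95% interval 56.9 to 64.2), or 5.92 on the log2 scale. It depended on the comparison class, which was built without Pi16, Col14a1 and Lum, and was 3.63 (log2) when cells with these were let into it, and 5.31 without library 2. With every cell thinned to 1500 UMIs, Dcn was found in 93.2% of adventitial fibroblasts, 10.9% of alveolar fibroblasts and 0.485% of B cells, which should lack it. Median depths before thinning were 9616, 9840 and 4628 UMIs. Ly6a, the surface protein Sca-1, had 1272 CPM against 17.5. Its log2 ratio of 6.18 was 5.44 without library 2 and 4.32 against the wider alveolar class. Serpinf1, the secreted serpin PEDF, had 819 against 20.7. Clec3b (tetranectin), Cd34 and Igfbp6 were 5.94, 5.63 and 4.96 times as high.

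A gene was counted as higher or lower when its ratio to alveolar fibroblasts was past 2-fold in the same direction in each of the 4 libraries. Genes of at least 20 CPM in either class were counted, without those of the rule. Of 7159 such genes, 86 (1.20%) were higher and 161 (2.25%) lower in adventitial fibroblasts. In libraries 2 and 3 alone, 497 (6.92%) were higher and 536 (7.47%) lower of 7178. The counts in each library were 27 higher and 97 lower at a mitochondrial limit of 5%, 17 and 28 with cells thinned to 1500 UMIs, and 210 and 271 without library 7. The median log2 ratio over all genes was -0.05. Of the 9 adventitial markers outside the rule, 7 were higher in each library (median log2 ratio 2.57). The exceptions were Dpt, which was higher in libraries 2 and 3 only (1459 against 467 CPM), and Mfap5 (2042 against 1219 CPM), which was below 2-fold. Of the 8 alveolar markers outside the rule, 7 were lower in each library (median -3.31), and Fgfr4, a receptor of alveolar fibroblasts, had no UMI in adventitial fibroblasts.

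**Figure D1:**
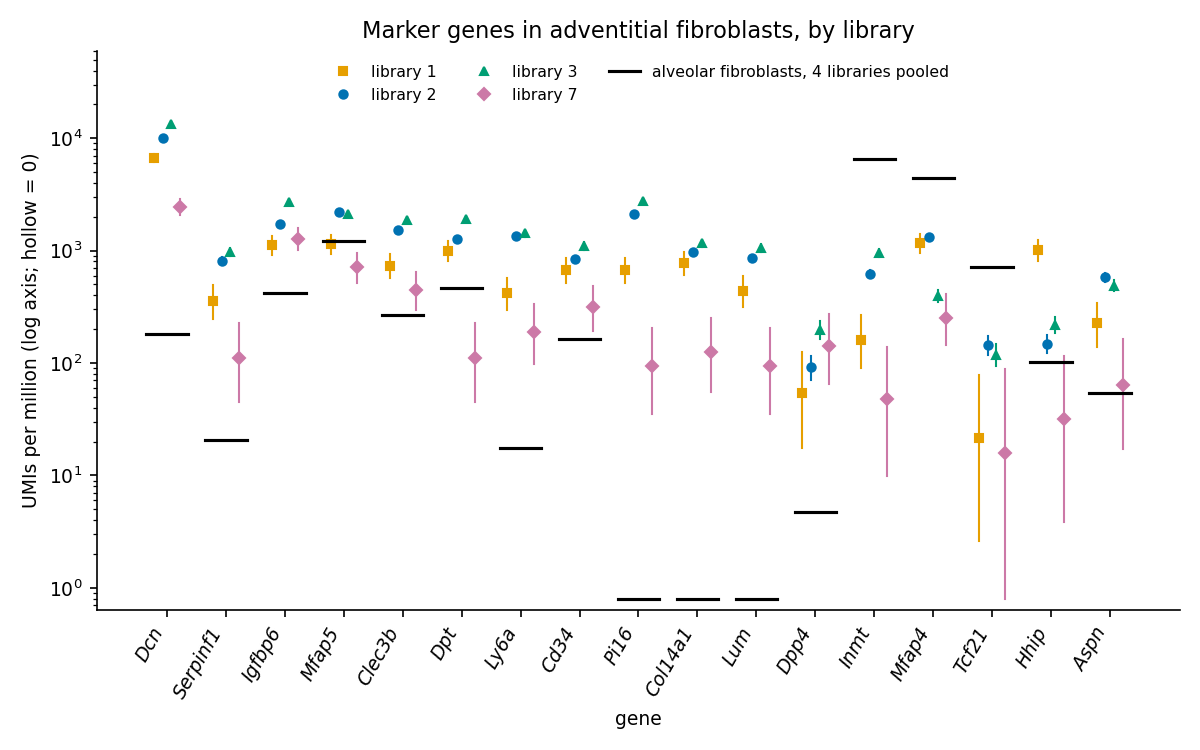
UMIs per 1000000 UMIs of marker genes in adventitial fibroblasts of libraries 1, 2, 3 and 7 (points, log axis, with exact 95% Poisson intervals) and in alveolar fibroblasts of the 4 libraries pooled (bars). Dcn, Serpinf1 and Ly6a lie above the alveolar level in every library and Inmt, Mfap4 and Tcf21 below it. Alveolar bars of Pi16, Col14a1 and Lum are at 0 by the rule and drawn at the bottom.

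The genes with the highest least-extreme ratio over the 4 libraries included surface proteins, matrix proteins and signals. Ackr3, an atypical receptor that takes up Cxcl12, had 301, 335, 525 and 63.3 CPM in libraries 1, 2, 3 and 7, against 1.72 CPM in alveolar fibroblasts (ratio 232, 129 to 467). On the log2 scale this was 7.86, and it was 4.82 with Pi16, Col14a1 and Lum allowed in alveolar fibroblasts, 6.75 without library 2, 8.68 without library 3 and 10.68 at a mitochondrial limit of 5%. Scara5, a ferritin receptor, had 96.6, 273, 466 and 63.3 CPM and no UMI in alveolar fibroblasts. It was at least 707.5-fold higher when 3 counts over the class were set as the floor, or 9.47 on the log2 scale. The log2 value was 7.92 without library 2, 8.72 without library 3, 6.66 with cells thinned to 1500 UMIs and 4.99 with the 3 rule markers allowed in alveolar fibroblasts. Cd248, or endosialin, had 182, 368, 577 and 79.1 CPM (ratio 65.4). All 3 were thus again highest in library 3 and lowest in library 7, and above the alveolar level throughout. The noncoding RNA Meg3 had 816 CPM against 7.20, the matrix genes Fbln2 and Matn2 had 608 against 6.41 and 102 against 6.26, and the membrane protease Mmp23 had 209 against 11.7. The log2 ratio of Fbln2 was 6.57, with 5.39 without library 2 and 7.52 without library 7. For Fbln2 it was 4.84 with equal weight of libraries and 4.24 against the wider alveolar class. That of Matn2 was 4.03, with 3.27 without library 2 and 2.80 against the wider alveolar class. Csrp2, Vcan, Htra3 and S100a4 were 12.1, 11.8, 10.5 and 6.12 times as high, although S100a4 had 560.0 CPM in the other cells of these libraries. Dpp4, the surface peptidase CD26 (chromosome 2, 62330073 to 62412231, minus strand), had 53.7, 91.3, 198 and 142 CPM against 4.69 (ratio 28.7, 19.5 to 43.5, or 4.84 on the log2 scale). The log2 ratio was 3.91 without library 2, 3.52 with the 3 rule markers allowed in alveolar fibroblasts, and 5.56 at a mitochondrial limit of 5%. All 15 leading genes had a lower ratio against the wider alveolar class, with a median log2 ratio of 3.63 in place of 4.84. Dpp4 was found in 39 of the 155 cells (25.2%). At 1500 UMIs per cell the share was 8.11%, against 0% of alveolar fibroblasts and 7.39% of B cells.

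At the other end stood genes of the alveolar fibroblast. Inmt, a methyltransferase, had 161, 620, 957 and 47.5 CPM in libraries 1, 2, 3 and 7, and 6552 CPM in alveolar fibroblasts, which was 9.28 times as high. Cdo1, which oxidizes cysteine, had 25.7 against 896 CPM, and Itga8, a subunit of the integrin that binds nephronectin, had 19.3 against 615. Macf1, Hsd11b1, Ppp1r14a, Adarb1 and Gyg were 12.8, 12.6, 14.5, 13.0 and 15.5 times as high in alveolar fibroblasts. Inmt was nevertheless found in 111 of the 155 adventitial fibroblasts, and 93 cells (60%) held UMIs of at least 3 of the 10 alveolar markers. The 492 cells with markers of both kinds had 3986 CPM of Inmt, 368 of Cdo1 and 408 of Itga8.

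**Figure D2:**
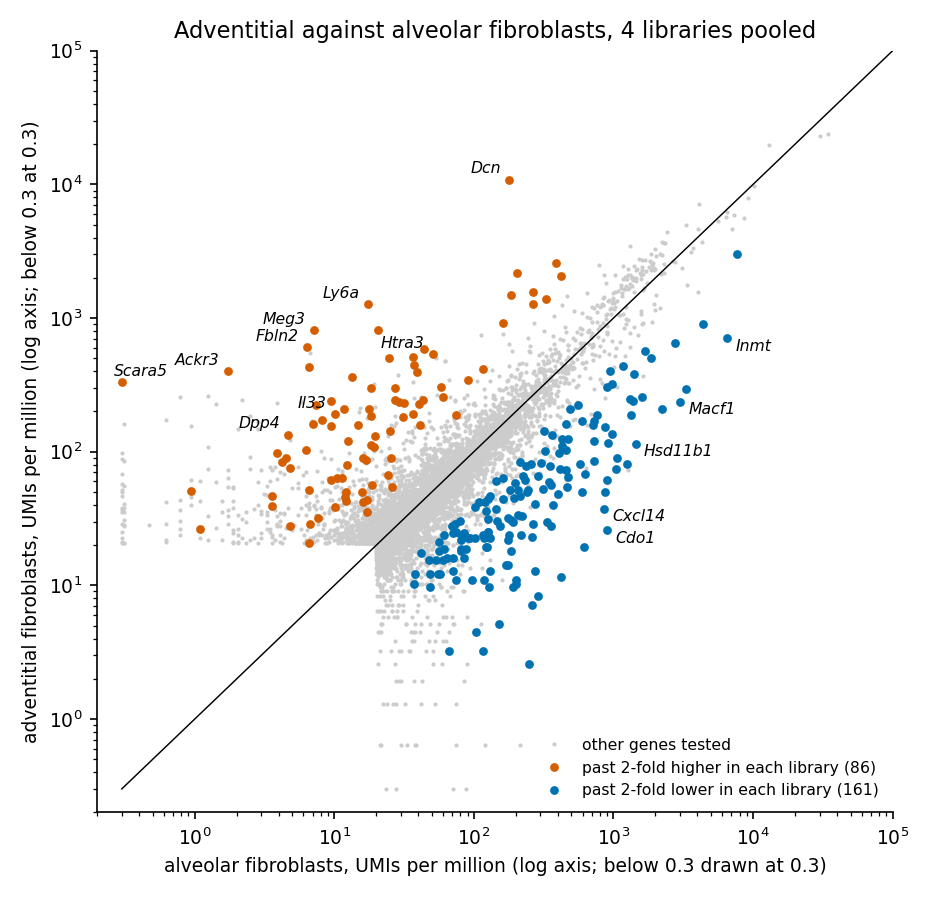
UMIs per 1000000 UMIs of each gene in alveolar fibroblasts (horizontal) and adventitial fibroblasts (vertical), 4 libraries pooled, both axes logarithmic. The 86 genes past 2-fold higher in each library lie above the diagonal and the 161 lower genes below it. Dcn stands at 10856 CPM against 180.

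Among matrix genes, the fibrillar collagens outside the rule had higher levels in the adventitial cells. Proteoglycans and elastic fiber genes lay on either side. Of 3 fibrillar collagen genes outside the rule, 2 were higher in each library (median log2 ratio 1.85), against 1.20% of all genes. Col5a1, which regulates fibril diameter, had 418 CPM against 116, and Col5a3 had 63.7 against 11.4, while Col5a2 (590 against 348) was below 2-fold. The 8 other small leucine-rich proteoglycans besides Lum had a median of 0.72. Dcn was higher in each library, and Aspn and Omd in libraries 2 and 3, where 6.92% of all genes were higher and 7.47% lower. Prelp (305 against 1057 CPM) was lower in libraries 2 and 3. Bgn, or biglycan, had 2383 against 3082 CPM. Of 7 collagens that associate with fibrils or other membranes, none was past 2-fold in each library and 2 were higher in libraries 2 and 3, against the same 6.92%. These were Col8a1 and Col15a1, the latter at 229 CPM in 66 cells against 1.41 CPM. Of 9 basement membrane genes, Nid1 (640 against 180 CPM) and Hspg2 (252 against 84.6) were higher in libraries 2 and 3, likewise against 6.92%, and the others were past 2-fold in neither direction.

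Elastic fiber genes split by member. Of 16, 2 were higher and 1 lower in each library, against 1.20% and 2.25% of all genes. In libraries 2 and 3, 4 were higher and 2 lower, against 6.92% and 7.47% (median log2 ratio 0.34). Fbln1 had 1379 CPM against 327, and Fbln2 was among the leading genes above. Fbn1, the main microfibril protein, had 687, 937, 1258 and 475 CPM, against 468, 368, 333 and 533 in alveolar fibroblasts, so library 7 went the other way. Emilin2 had 147 CPM against 2.03. Mfap4 was lower in each library (899 against 4416 CPM) and Ltbp2 in libraries 2 and 3. Eln, which encodes elastin, had 2941, 2370, 881 and 1265 CPM in libraries 1, 2, 3 and 7 of adventitial fibroblasts and 2866, 3832, 998 and 5551 in alveolar fibroblasts. It was past 2-fold in neither rule, and it was lower in library 3 than in library 2 in both classes. Of 13 genes of collagen processing, Bmp1, the procollagen C-proteinase (191 against 36.6 CPM), and the lysyl oxidase Loxl3 (41.8 against 16.1) were higher in each library, against 1.20% of all genes. Loxl2 and P4ha2 followed in libraries 2 and 3, against 6.92%.

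Of 17 other matrix genes, 3 were higher in each library and 1 lower (median 0.19), against 1.20% and 2.25% of all genes. In libraries 2 and 3, 8 were higher and 4 lower, against 6.92% and 7.47%. Vcan, Has1 and Thbs2 were the higher genes. Cyr61, a matricellular protein, was the lower gene (499 against 1866 CPM). In libraries 2 and 3, Tnxb (745 against 113 CPM), Cilp (255 against 0.782), Has2, Postn and Dpt joined the higher genes, while Thbs1 (192 against 689), Tnc and Wisp2 joined the lower genes.

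Of 17 matrix proteases, 5 were higher in each library and none lower (median 0.61), against 1.20% and 2.25% of all genes, and 6 were higher and none lower in libraries 2 and 3, against 6.92% and 7.47%. The 5 were Mmp23, Dpp4, Htra1 (306 against 57.7 CPM), Htra3 and Adamts5, an aggrecanase (393 against 39.1). Fap, a peptidase related to Dpp4, had 45.7 CPM in 39 cells against 0.939. The cathepsins differed less. Ctsl, the lysosomal cysteine protease cathepsin L on which the study centred, had 805, 1332, 1188 and 506 CPM in libraries 1, 2, 3 and 7 of adventitial fibroblasts and 648, 806, 817 and 714 in alveolar fibroblasts. The ratio was 1.52 (1.44 to 1.60), and the ranges overlapped. Ctsb (485 against 458 CPM), Ctsd (412 against 387) and Ctsk (127 against 67.7) were below 2-fold as well. Mmp2 had 585 against 560 CPM, and Mmp12, the macrophage elastase, had 1 UMI in all. Of 10 protease inhibitors outside the rule, Serpinf1 was higher and Cst3, the cathepsin inhibitor cystatin C, lower in each library (1417, 4154, 2071 and 1550 CPM against 3750, 8710, 4783 and 6736), against 1.20% and 2.25% of all genes. Timp2 had 2106 CPM against 859 and was higher in libraries 2 and 3. Serpine2 had 75.9 against 640.3 and was lower there.

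Signals to leukocytes included Il33 on the adventitial side and Cxcl14 on the alveolar side. Il33, the alarmin that acts on ST2-bearing lymphocytes and eosinophils, had 53.7, 224, 162 and 301 CPM in libraries 1, 2, 3 and 7, against 3.22, 8.62, 5.22 and 46.5 in alveolar fibroblasts. The values of the classes did not overlap, although library 1 of adventitial fibroblasts (53.7) lay close to library 7 of alveolar fibroblasts (46.5). The ratio was 18.9 (14.4 to 25.1), or 4.24 on the log2 scale. The log2 ratio was 3.52 without library 2 and 5.49 without Scrublet doublets or within the study's limits on UMIs and genes. It was found in 85 of 155 cells (54.8%), and, at 1500 UMIs per cell, in 18.2% of adventitial fibroblasts, 0.790% of alveolar fibroblasts and 0.606% of B cells. Il33 was the only one of 6 cytokine genes higher in each library, against 1.20% of all genes. Csf1, a macrophage growth factor, followed in libraries 2 and 3 (137 against 46.5 CPM), and Tslp (18.7 against 49.9) and Il6 (41.8 against 122) were lower there, where 6.92% of all genes were higher and 7.47% lower. The 492 cells with markers of both kinds had 12.9 CPM of Il33, near the alveolar level.

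Of 7 chemokine genes, Cxcl14 was lower in each library (37.3 against 856 CPM), against 2.25% of all genes. Its log2 ratio of -4.52 was -5.65 without library 2 and -3.92 without library 3. In libraries 2 and 3, 2 chemokine genes were higher and 2 lower, against 6.92% and 7.47%. Ccl11, the eosinophil chemokine eotaxin, had 161, 307, 133 and 15.8 CPM in libraries 1, 2, 3 and 7, against 77.4, 17.2, 1.74 and 48.9. It was past 2-fold higher in libraries 1, 2 and 3 and lower in library 7, where it had 1 UMI. It was found in 58 cells. Cxcl13, which draws B cells, had 260 CPM, but 80.5% of its UMIs came from 1 cell and all of them from 7. Cxcl12 had 375 against 185 CPM. Of 10 complement genes, C7 was lower in each library, against 2.25% of all genes. C3 (2500 against 786 CPM) and Cd55, which limits complement on the cell surface (258 against 42.1), were higher in libraries 2 and 3, against 6.92%.

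Transcription factors marked the classes. Of 24 mesenchymal factors, 1 was higher and 3 lower in each library, against 1.20% and 2.25%, and 12 were higher and 6 lower in libraries 2 and 3, against 6.92% and 7.47% of all genes. Gata6 was the higher gene in each library (193, 185, 84.0 and 174 CPM against 51.6, 21.4, 20.9 and 56.3). Ebf1, a helix-loop-helix factor also used by B cells, had 225, 418, 794 and 47.5 CPM against 6.73 (ratio 80.8). In the B cells it had 834 CPM. B cell-specific Cd79a had 1 UMI in the adventitial fibroblasts, while Ptprc was at 0 by the rule. Ebf2 had 97.2 CPM and Twist2 35.4, and neither had a UMI in alveolar fibroblasts. Klf4 (477 against 61.8 CPM), Creb5 (184 against 2.50), Osr1 (195 against 47.7), Twist1, Osr2, Prrx1, Foxp1 and Foxp2 were also higher in libraries 2 and 3. Tcf21, which marks lung lipofibroblasts (121 against 721 CPM), Tbx2 (54.1 against 462) and Hoxa5 were lower in each library, and Tbx4, Tbx5 and Nr4a1 in libraries 2 and 3.

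**Figure D3:**
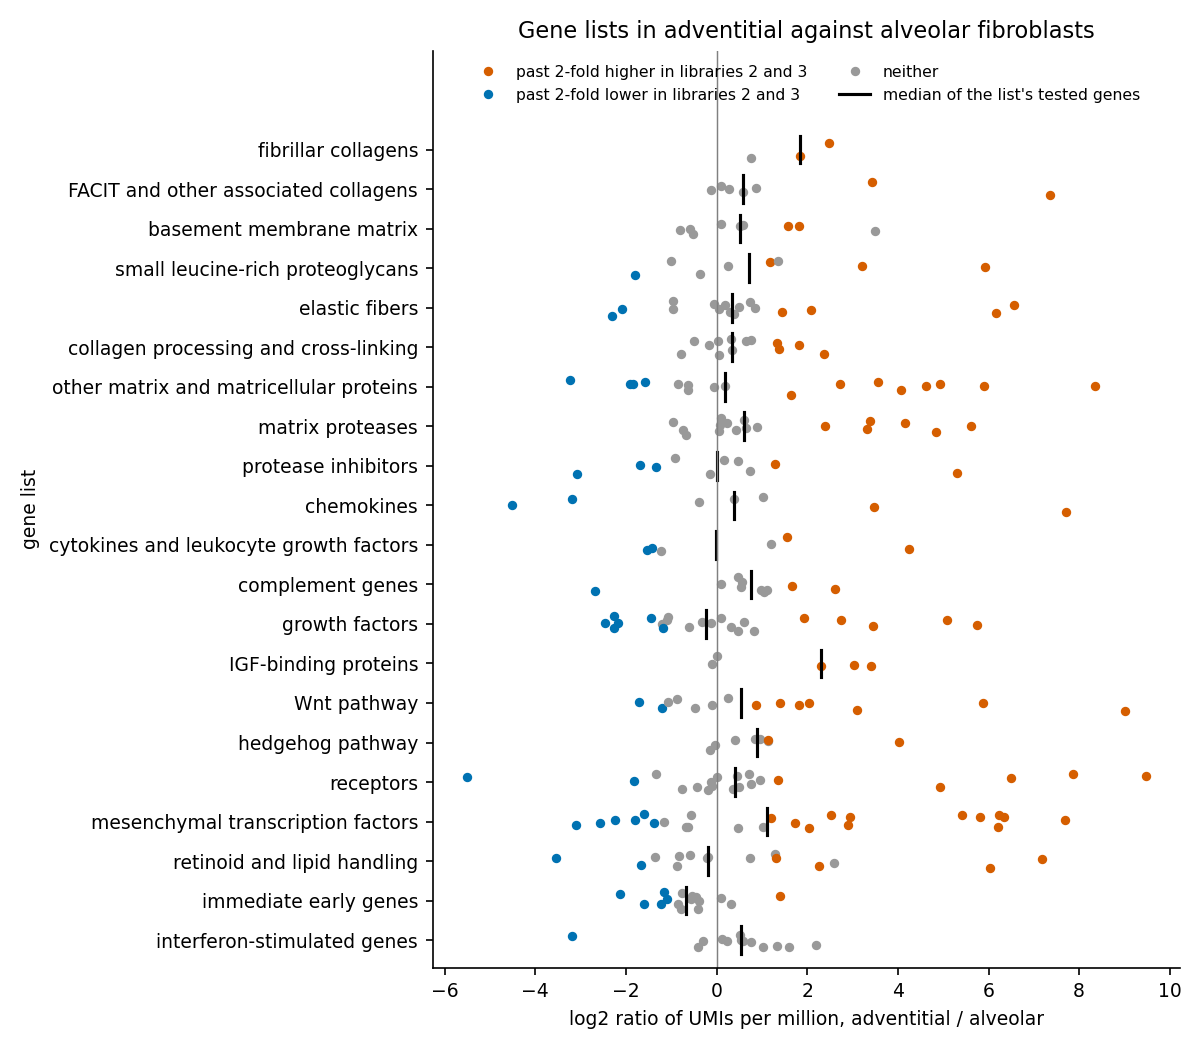
Log2 ratio of CPM, adventitial to alveolar fibroblasts, for each tested gene (points) of the matrix, signal, regulator and state lists shown, with the list's median (bar). Cell type markers are not plotted. Colors mark genes past 2-fold in libraries 2 and 3. Of the lists plotted, IGF-binding proteins have the highest median (2.31) and immediate early genes the lowest (-0.67).

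Growth factor genes divided as well. Of 22, 2 were higher and 4 lower in each library (median -0.23), against 1.20% and 2.25% of all genes, and 5 were higher and 6 lower in libraries 2 and 3, against 6.92% and 7.47%. Sema3c, a guidance cue (299 against 27.2 CPM), and Vegfc, which acts on lymphatic vessels (38.6 against 10.2), were higher. Vegfd (134 against 365 CPM), Angpt1, Bmp5 and Fgf10 (12.2 against 54.9), which supports alveolar epithelium, were lower. Of 5 IGF-binding proteins, 3 were higher in each library, against 1.20% of all genes, and none was lower. Igfbp4 had 1498 CPM against 184, Igfbp6 had 2073 against 418, and Igfbp5 had 2146, 1002, 3370 and 4381 CPM in libraries 1, 2, 3 and 7 against 248, 46.4, 672 and 607. The ranges of Igfbp5 did not overlap, although it was found in only 72 cells and 25.0% of its UMIs came from 1 of them.

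In the Wnt pathway, none of 14 genes was past 2-fold in each library, while 7 were higher and 2 lower in libraries 2 and 3, against 6.92% and 7.47% of all genes. The secreted inhibitors Sfrp4 (162 against 0.313 CPM) and Dkk2 (166 against 2.82) and the ligand Wnt5a (169 against 64.1) were among the higher genes, and the ligands Wnt2 and Wnt4 were the lower genes. Libraries 1 and 7 held no UMI of Sfrp4. Of 8 hedgehog genes, the co-receptor Cdon was higher in each library (155 against 9.54 CPM) and Gas1 in libraries 2 and 3 (554 against 251), against 1.20% and 6.92% of all genes. Of 20 receptor genes, Ackr3 and Scara5 were higher in each library, and 5 were higher and 2 lower in libraries 2 and 3, against 6.92% and 7.47%. Of all genes, 1.20% were higher in each library. The PDGF receptor Pdgfra had 326 against 829 CPM.

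Genes of retinoid and lipid handling stood on either side. Aldh1a1, which makes retinoic acid, was lower in each library (90.1 against 1054 CPM), whereas Aldh1a3 (61.8 against 0.939 CPM) and Cyp1b1, which had no UMI in alveolar fibroblasts (68.2 CPM), were higher in libraries 2 and 3. Over the list of 15 retinoid and lipid genes the median was -0.19, with 4 higher and 2 lower in libraries 2 and 3, against 6.92% and 7.47% of all genes. Immediate early genes, many of which respond to tissue dissociation, had a median of -0.67. Of 16, none was past 2-fold in each library and 5 were lower and 1 higher in libraries 2 and 3, against 7.47% and 6.92% of all genes. Btg2 (371 against 1630 CPM) was among the lower genes. Interferon-stimulated genes had a median of 0.55, with none of 13 past 2-fold in each library and 1 lower in libraries 2 and 3, against 7.47%. Mki67 and Top2a, which mark dividing cells, had 1 and 0 UMIs. The activated fibroblast genes had a median of 0.05. Cthrc1 had 0, 142, 20.6 and 158 CPM in libraries 1, 2, 3 and 7, and Spp1 had 8035 CPM in library 7, all from 1 cell.

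Adventitial fibroblasts were also compared with smooth muscle cells and pericytes. The comparison class had 34 cells, with 3, 26, 2 and 3 in libraries 1, 2, 3 and 7, so each ratio outside library 2 rests on few cells. Of 7860 genes, 22 (0.280%) were higher and 4 (0.0509%) lower in each library. In libraries 2 and 3 alone, 95 (1.17%) of 8128 were higher and 332 (4.08%) lower, so the balance turned. The comparison class had 12584 UMIs in library 3, and a gene with 0 there was set to 3 counts, which limits calls of higher genes. The part of this depth in the turn was not tested. Without Scrublet doublets 3 were higher and 2 lower in each library, and with cells thinned to 1500 UMIs 3 and 0, so most of these calls ended. Of matrix genes, 2 of 3 fibrillar collagens, 2 of 7 associated collagens and 3 of 16 elastic fiber genes were higher in each library. Of 8 proteoglycans, 13 genes of collagen processing and 17 other matrix genes, 1 each was higher. None of 9 basement membrane genes was, against 0.280% of all genes. Mfap5, a microfibril protein, had 2042 CPM against 102, Fbln1 had 1379 against 53.8, Gsn, the actin-severing gelsolin, 19849 against 1868, and Clec3b 1577 against 32.3. Mfap5 thus separated adventitial fibroblasts from smooth muscle, but not from alveolar fibroblasts. The 7 peribronchial markers, Hhip and Aspn among them, summed to 942 CPM in adventitial fibroblasts and 189 in alveolar fibroblasts. In smooth muscle cells and pericytes they summed to 3606 CPM. Of 6 tested against that class, 0 were higher and 0 lower in each library, against 0.280% and 0.0509% of all genes. Their median log2 ratio was -1.65, and 2 had a ratio above 1.

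Markers of other cell types differed in level between the libraries. Epcam, Cd3e, Prox1 and Acan had no UMI. At least 1 of the 5 chondrocyte markers was nevertheless found in 20 of the 155 cells, and at least 1 of the 5 lymphatic endothelial markers in 7. The 6 endothelial markers, with Ramp2 the most abundant, summed to 135 CPM against 44.6 in alveolar fibroblasts. At least 1 of them was found in 88 cells and at least 3 in 3. The 6 smooth muscle markers, of which Myh11 was at 0 by the rule and Acta2 was the most abundant, summed to 698, 322, 60.2 and 1613 CPM in libraries 1, 2, 3 and 7. At least 1 was found in 52 of the 155 cells and at least 3 in 8. The 8 pericyte markers, with Postn the most abundant, summed to 518 CPM, and at least 1 was found in 117 cells and at least 3 in 10. The 8 epithelial markers summed to 333, 612, 675 and 380 CPM in libraries 1, 2, 3 and 7. Most of this was Scgb1a1, the secretory protein of club cells, with 469 CPM, and at least 3 epithelial markers were found in 18.1% of the cells. Alveolar fibroblasts of the same libraries had a similar level of Scgb1a1 in each (215, 472, 539 and 111 CPM in adventitial against 223, 515, 742 and 103 in alveolar fibroblasts). Of the 8 leukocyte markers, which summed to 212 CPM, Lyz2 was the most abundant with 131. The 6 mesothelial markers summed to 708, 245, 374 and 3828 CPM. At least 1 was found in 20 cells and at least 3 in 5, of which 1 was in library 7. Upk3b and Msln were each found in 5 cells, and Upk3b reached 1930 CPM in library 7. The part of these RNAs in the results was not tested.

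Within the 155 cells, Pi16 divided a larger from a smaller group. It had a UMI in 110 cells and none in 45, whose median depths were 10401 and 6142 UMIs. The groups were compared in libraries 2 and 3, with 49 and 55 cells with Pi16 and 27 and 12 without. Since Pi16 was part of the rule, this is a description. Of 7229 genes, 134 (1.85%) were past 2-fold higher and 311 (4.30%) lower in both libraries in cells with Pi16. Cells with Pi16 had more Sfrp4 (216 and 236 CPM in libraries 2 and 3 against 16.4 and 15.8), Postn, or periostin (257 and 585 against 28.7 and 63.2), Fbln2 (810 and 761 against 115 and 79.1) and Dpp4 (123 and 220 against 24.6 and 0). Each of these was higher with Pi16 in both libraries. Pla2g4a, Ebf2, Metrnl, Efhd1, Gfpt2, Dkk2, Nid1, Ly6c1, Ly6a, Tmem100 and Lrrn4cl completed the 15 leading genes. Dkk2 had no UMI in cells without Pi16.

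Hhip led the genes that were lower in cells with Pi16. Hhip, the hedgehog-binding protein that marks peribronchial fibroblasts, had 410 and 1960 CPM in libraries 2 and 3 against 26.8 and 24.7 in cells with Pi16. Des (192 and 79.1 CPM against 7.66 and 7.04), Tagln (319 and 158 against 17.2 and 24.7) and Mylk, which smooth muscle cells also use, were among the 10 leading genes as well, and so were Serpine2, Pdgfa, Tmem176a, Tmem176b, Hmcn1 and Cp. Hhip stood in few cells. It was found in 24 of the 155 (15.5%), and 5 cells held 70.4% of its UMIs. Of the 24, 14 also had a Pi16 UMI. Hhip was thus found in 12.7% of the cells with Pi16 (7.14 to 20.4) and 22.2% of those without (11.2 to 37.1), with overlapping intervals. Aspn, the other gene of this kind, was found in 17 of the 24 cells with Hhip (70.8%) and in 47.3% of those without. At 1500 UMIs per cell it was in 10 of 11 cells with Hhip (90.9%, 58.7 to 99.8) and in 28.5% of those without. It had 595 CPM in cells with Pi16 and 332 in cells without, which was not past 2-fold, and was found in 58.2% and 33.3% of them (40% and 22.4% at 1500 UMIs per cell).

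Depth differed between the groups, so shares of cells were also taken at 1500 UMIs per cell. At that depth, 90 cells had a Pi16 UMI and 58 had none. Dpp4 was found in 13.3% of the cells with Pi16 (7.08 to 22.1) and in 0 of 58 without (up to 6.16%). Cd248 was found in 47.8% (37.1 to 58.6) against 13.8% (6.15 to 25.4), and Ebf1 in 47.8% against 17.2%. Il33 was found in 26.7% (17.9 to 37.0) against 5.17% (1.08 to 14.4). Hhip was found in 4.44% against 12.1%, and Inmt in 41.1% against 46.6%. Cells are not replicates, and the groups drew unequally on the libraries, since 55 of 67 cells of library 3 and 49 of 76 of library 2 had Pi16 before thinning. The part of the library in these shares was not tested. Of the 39 cells with Dpp4 before thinning, 1 also had Hhip, against 23 of the 116 without Dpp4 (19.8%). Median depths were 13149 UMIs with Dpp4 and 8064 without. At 1500 UMIs per cell, Hhip was in 0 of 12 cells with Dpp4 (up to 26.5%) and 8.09% of those without (4.11 to 14.0), so the intervals overlapped.

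**Figure D4:**
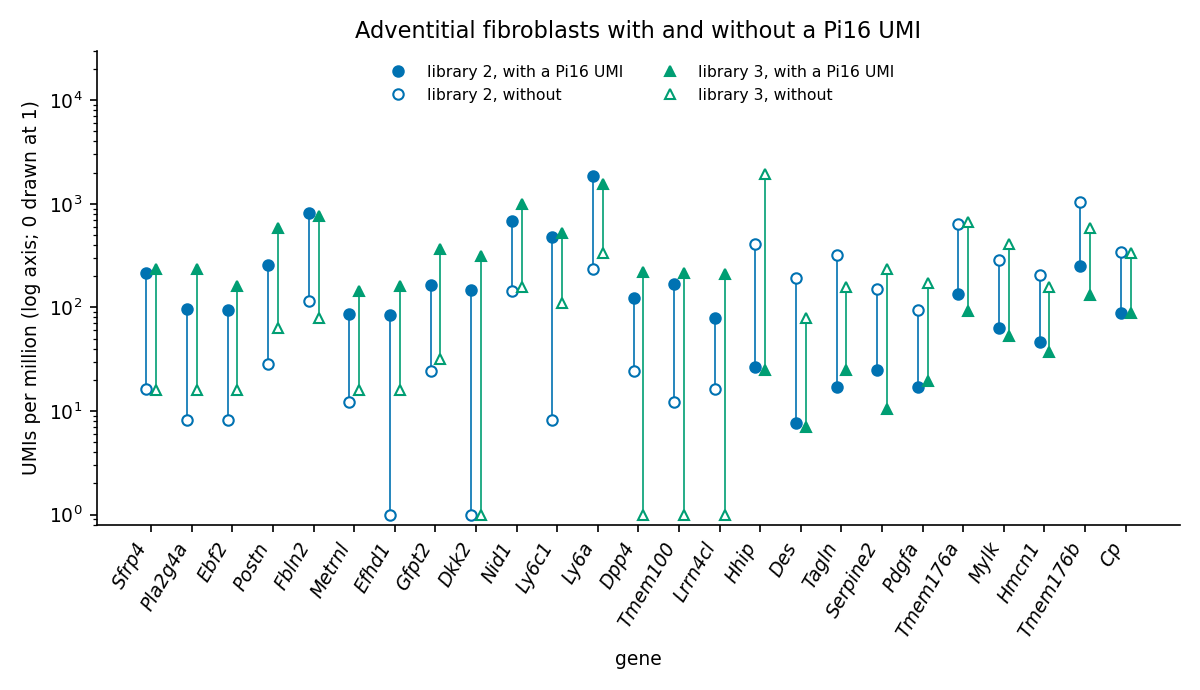
UMIs per 1000000 UMIs (log axis, 0 drawn at 1) in adventitial fibroblasts with a Pi16 UMI (filled) and without (open) of libraries 2 and 3, for the 15 leading genes higher with Pi16 and the 10 lower. Filled points lie above open points from Sfrp4 to Lrrn4cl and below them from Hhip to Cp, in both libraries.

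The promoters of Pi16 and Dpp4 are shown because Dpp4 was found more often in cells with Pi16, which is a rule gene. In addition, 2 EBF genes were higher in adventitial than in alveolar fibroblasts. Whether Dpp4 and the EBF genes were found in the same cells was not tested. The 250 bases before each start are from RefSeq on GRCm38.p6, written 5′ to 3′ on the gene's strand. For Pi16, the RefSeq start lies inside the span given above from GENCODE, so the stretch is upstream of the RefSeq start only. Capitals mark the motif TCCCNNGGGA, a palindrome bound by EBF factors, searched on both strands.
Pi16 (chr17:29318632-29318881, plus strand): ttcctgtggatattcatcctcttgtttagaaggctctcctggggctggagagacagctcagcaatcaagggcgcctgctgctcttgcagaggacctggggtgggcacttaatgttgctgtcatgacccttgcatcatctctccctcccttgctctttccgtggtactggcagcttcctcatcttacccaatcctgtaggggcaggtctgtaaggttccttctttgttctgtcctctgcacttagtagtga
Dpp4 (chr2:62412232-62412481, minus strand): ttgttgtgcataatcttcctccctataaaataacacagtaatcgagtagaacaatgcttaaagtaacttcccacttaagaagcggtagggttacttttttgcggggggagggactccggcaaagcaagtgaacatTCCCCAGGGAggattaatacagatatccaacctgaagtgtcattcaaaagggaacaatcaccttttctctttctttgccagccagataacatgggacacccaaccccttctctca
The Dpp4 promoter held 1 match that began 115 bases before the start, and the stretch before the RefSeq start of Pi16 held none. Of 32851 promoters of this length, 256 (0.779%) held the motif. Of the 15 leading genes against alveolar fibroblasts, 9 were in the table and 1, Dpp4, held it. TATAAA, the letters of the TATA box, was searched on both strands and at any place in the 250 bases. It occurred in 12.4% of all promoters. Counted by gene, 5 of the 9 had it (Ackr3, Dpp4, Il33, Meg3 and S100a4). The share of promoters and the count of genes are unlike units and were not compared. A match is a run of letters and not a measured binding site.

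Expression also varied from cell to cell. With cells thinned to 1500 UMIs, the variance over the mean had a median of 1.05 over 3128 genes. It was highest for Mgp, the matrix Gla protein that inhibits calcification (35.7), which at 23132 CPM was the most abundant gene after Malat1, mitochondrial and ribosomal protein genes aside. Spp1, Cxcl13 and Slpi were variable because 94.6%, 80.5% and 91.7% of their UMIs came from 1 cell each. Hhip (15.2), Igfbp5 (13.9), the metallothionein Mt1 (12.9) and Thbs1 (11.8) were found in 24, 72, 100 and 34 cells. Of their UMIs, 5 cells held 70.4%, 54.95%, 32.1% and 51.7%, in the same order. Eln was also among the 15 most variable genes (7.32), and 5 cells held 35.8% of its UMIs.

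Between libraries 2 and 3, which held most of the cells, 328 (4.71%) of 6969 genes were past 2-fold higher in library 3 and 331 (4.75%) lower. Library 3 had more Has1, a hyaluronan synthase (455 against 62.6 CPM, ratio 7.26, 5.34 to 10.1), Atf3, a stress-induced factor (447 against 61.3), and Nr1d1, a clock gene (162 against 13.1, in 30 of 67 cells). In alveolar fibroblasts, Atf3 and Nr1d1 were likewise higher in library 3 (473 against 123 and 199 against 7.07 CPM), so these differences were not particular to the adventitial cells. Library 2 had more Apoe (2356 against 748 CPM), Ctgf (337 against 124), Wisp2 (191 against 57.0), Cthrc1 (142 against 20.6) and Mfap4 (1333 against 396). In alveolar fibroblasts, Ctgf went the other way (310 in library 2 against 562 CPM in library 3). The conditions behind the libraries are not known here, and the genes that stood out in libraries 1 and 7, such as Notum, Wif1 and Spp1, came mostly from single cells. An exception was Ltbp2 in library 1, found in 5 of 8 cells with 48.1% of its UMIs from 1 of them.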

How the data were processed

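Mouse lung cells were measured by 10x Chromium 3′ sequencing. The authors used Cell Ranger 3.1.0 with STAR and mm10 (submitters' notes), evened out libraries by down-sampling reads, and deposited UMI counts as 1 matrix of 31053 genes that precedes their Seurat filter. Positions are of GRCm38 in GENCODE M21 (30934 identifiers found).

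Here, counts were summed per class and library and scaled to CPM. Levels and ratios have exact 95% Poisson intervals and shares exact binomial ones. For ratios, 0 was set to 3 counts. Alveolar fibroblasts also lacked Cdh5, Ptprc and Myh11. Smooth muscle cells and pericytes had 2 UMIs of Myh11, Cspg4, Notch3 and Kcnj8 and none of Pi16, Col14a1, Lum, Npnt, Col13a1, Cdh5, Ptprc or Epcam. B cells (1672) had 3 UMIs of Cd79a, Cd79b and Ms4a1, and a few were rich in Sftpc or Scgb1a1. No doublet caller was applied, and Scrublet (scanpy 1.11.5) was an alternative. The cells and 36 gene lists were chosen with earlier results of these data known.

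Genes are named from the lists, or as the 15 highest and 10 lowest by least extreme library ratio among those past 2-fold and of at least 100 CPM, the 5 of highest ratio in each library, the 15 most variable and the most abundant. Groups by Pi16 were to be compared in each library, but libraries 1 and 7 held too few cells. List symbols were matched by an older name for 3 genes, and 2 listed more than once were left out. Some named genes are not reported here. In simulated data of 6566 genes, 47 and 48 of 50 genes changed 4-fold up and down were found. Of 50 genes each changed 8-fold up and down, 50 and 48 were found, and 0 unchanged genes were called. Only changes of 4-fold and 8-fold were simulated, and none of 2-fold, the limit used for the counts. The simulation therefore does not show how reliable the counts of genes past 2-fold are, which was not tested. Python 3.11.15 was used, with scipy 1.17.1, numpy 2.4.6, pandas 2.3.3 and matplotlib 3.10.9.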

Additional observations from a re-analysis of the deposited data

Results flagged for a closer look

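Pi16 UMIs were also found in libraries 4, 5 and 6, which hold no adventitial fibroblast and which the comparisons did not use. There were 1237, 463 and 496 of them, above the 3 counts that a count of 0 allows. Libraries 4, 5 and 6 held 0, 2 and 0 UMIs of Col14a1, no UMI of Lum, and 0, 0 and 2 of Dcn. Of their cells with at least 5 UMIs of Lyz2, a myeloid gene, 47.8% (737 of 1541), 44.6% (204 of 457) and 39.5% (256 of 649) had a Pi16 UMI. In libraries 1, 2, 3 and 7 the share was 13.5%, 10.1%, 17.2% and 9.55%. No cell of these in libraries 4, 5 and 6 had more than 7 Pi16 UMIs. A Pi16 UMI by itself therefore did not mark a fibroblast in these libraries, where no cell had more than 2 collagen UMIs.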

How the results depend on the processing

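Alternatives were run for the number of cells, the counts of genes against alveolar fibroblasts and smooth muscle cells, and the ratios of the 25 leading genes to alveolar fibroblasts, but not for the gene lists, the groups by Pi16 or library 2 against 3. No leading gene changed its direction, while the balance of higher and lower genes against smooth muscle cells turned in libraries 2 and 3 and in pooled libraries. The leading genes were chosen as past 2-fold in each library, so their direction with libraries left out followed largely from that choice. Of the values of single named genes, 265 moved by less than the counting interval and 85 by more. The mitochondrial limit of 5% gave 27 higher and 97 lower genes than in alveolar fibroblasts (86 and 161 in the report) and a median log2 ratio of the 15 leading genes of 5.56 (4.84 in the report). It left no smooth muscle comparison, because a library then held no such cell. The study's own limits on UMIs and genes also gave a median of 5.56. Without Scrublet doublets, 3 genes were higher and 2 lower than in smooth muscle cells (22 and 4 in the report), and the median was 5.49. Cells thinned to 1500 UMIs gave 17 and 28 against alveolar fibroblasts and 3 and 0 against smooth muscle. Pooled libraries gave 620 and 649, and 1002 and 1540, with a median of 4.16 under equal weights. A minimum of 100 CPM gave 55 higher genes. A limit of 3-fold gave 43 and 72, and 7 and 1. Added after seeing the data, libraries 2 and 3 alone gave 497 and 536, and 95 and 332, and Pi16, Col14a1 and Lum allowed in alveolar fibroblasts gave a median of 3.63.

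Leaving out each library in turn gave 79 to 151 cells, 101 to 210 higher and 173 to 271 lower genes against alveolar fibroblasts, 28 to 67 and 10 to 47 against smooth muscle, and medians of 4.29 to 5.06 and -4.21 to -3.75. The highest counts came without library 7, which held 4 adventitial fibroblasts and 3 smooth muscle cells or pericytes. Why the counts rose was not tested. Without library 1, 137 genes were higher than in alveolar fibroblasts. The number of cells stayed at 145 with 10 collagen UMIs and 147 with 2 marker UMIs. Few cells limit the precision: libraries 1 and 7 held 8 and 4 adventitial fibroblasts, and library 3 held 2 smooth muscle cells or pericytes. No paired analysis was possible because no label ties a library to a sample or replicate, so the matrix counts as 1 sample and the results come from no test. Ratios were taken within each library and given no p-value.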
